A study of Mus musculus with 33 samples.

Results

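Gata2, Pax8 and Pou3f4 are transcription factor genes that were picked because their counts were higher in rod culture than in cone culture in these libraries. They are described here with the nearest relatives of each: Gata3, Pax2, Pou3f1, Pou3f2 and Pou3f3. These are 8 of the 47729 genes in the count tables, found by gene name, and each name matched 1 gene. Total RNA was sequenced from cells labelled as retinal progenitors, the dividing precursors of retinal neurons and glia, of C57BL/6J mouse embryos. There were 33 libraries in 11 groups of 3. At day 0 the cells were untreated, cone primed with COCO protein, or rod primed with taurine and retinoic acid. At days 5, 12, 21 and 35 they were cone induced with COCO protein or rod induced with taurine and retinoic acid. The first agent blocks BMP, TGF-beta and Wnt ligands outside the cell, and retinoic acid, made from vitamin A, switches on genes through nuclear receptors. The labels name no gene alteration, and all groups share the mouse strain and the tissue of origin. They give neither the growth protocol nor whether the 3 libraries of a group came from separate animals or cultures. The p-values therefore measure the spread between these libraries, which may be technical.

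GATA factors are zinc finger proteins. Gata2 and Gata3 act in blood formation, in the inner ear and in GABAergic neurons of the midbrain, hindbrain and spinal cord. PAX factors carry a paired DNA-binding domain: Pax2 marks the optic stalk, the ventral optic cup, the midbrain-hindbrain boundary, the ear and the kidney, and Pax8 acts in the thyroid and, together with Pax2, in the kidney and ear. The class III POU genes (Pou3f1 to Pou3f4) have a single exon each and are used in neural development. Pou3f1 is also known from myelinating Schwann cells, Pou3f2 from cortical and hypothalamic neurons, and Pou3f4 from the inner ear.

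The 4 POU3F genes are near copies in the part that binds DNA, so their most alike coding stretch of 90 bases is shown to let a reader judge whether reads can be told apart. Letters in capitals differ from Pou3f4 at the same place, and the stretches are read 5′ to 3′ on the coding strand from the GENCODE M21 transcripts (build GRCm38).
Pou3f4: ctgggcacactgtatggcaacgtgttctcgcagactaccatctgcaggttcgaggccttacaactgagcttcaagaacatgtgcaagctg
Pou3f2: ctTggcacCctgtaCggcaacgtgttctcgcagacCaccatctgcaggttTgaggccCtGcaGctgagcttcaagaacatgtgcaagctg
Pou3f1: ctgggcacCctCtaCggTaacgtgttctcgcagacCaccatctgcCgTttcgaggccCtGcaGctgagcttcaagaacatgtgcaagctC
Pou3f3: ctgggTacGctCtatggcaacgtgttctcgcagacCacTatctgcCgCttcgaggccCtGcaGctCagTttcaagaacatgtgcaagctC
Pou3f4 (chrX:110815119-110815208, plus strand) had 8 differences from Pou3f2 (chr4:22487154-22487243, minus strand), 11 from Pou3f1 (chr4:124658538-124658627, plus strand) and 13 from Pou3f3 (chr1:42698175-42698264, plus strand). Over whole transcripts, the longest run of identical bases was 38 between Pou3f1 and Pou3f2 and 29 between Pou3f2 and Pou3f4. It was 17 between Gata2 and Gata3 and 27 between Pax8 and Pax2. Reads that lie wholly inside such runs could be assigned to either gene, and the read length is not given in the sources used here.

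The members lie on GRCm38 at chr6:88193891-88207032 (Gata2, ENSMUSG00000015053), chr2:9857078-9890034 (Gata3, ENSMUSG00000015619), chr2:24420560-24475599 (Pax8, ENSMUSG00000026976) and chr19:44756045-44837871 (Pax2, ENSMUSG00000004231). Pou3f1 is at chr4:124656807-124660655, Pou3f2 at chr4:22482780-22488366, Pou3f3 at chr1:42695768-42703176 and Pou3f4 at chrX:110814280-110817207. Exons of 3 members overlap exons of genes on the other strand, and the strand setting of the counting is not given in the sources used here. The overlap took 8.57% of Pou3f1 exon bases (Gm2164, at most 33 counts in a library), 6.06% of Pax8 (Gm13415, at most 24) and 3.90% of Gata3 (Gm13256, at most 1). Gata3 also shares 77 exon bases with 9230102O04Rik on its own strand. In the 250 bases before the start of 7 members, which RefSeq lists on GRCm38.p6 with 10 starts, no exact match was found for 3 motifs on either strand. They were AGGTCA, the half-site of retinoic acid receptors (in 14.0% of all 32851 promoters of that length), AGATAA, bound by GATA factors (in 9.99%), and the octamer ATGCAAAT, bound by POU factors (in 1.60%).

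Each library held 7511837 to 19166442 counts in genes (median 12985662), and genes took 26.9% to 34.9% of all counted reads. Levels are given as CPM, counts scaled to library size (edgeR's CPM). A count of 0 allows up to 3 counts, which was 0.174 to 0.407 CPM, for counting error only. All 8 members passed the filter on low counts, with 18150 genes tested. Retinal progenitor markers were present in all groups: the summed level of 8 markers, among them Rax, Six3, Six6, Lhx2, Pax6, Sox2 and Hes1, lay between 812 and 1514 CPM in the 33 libraries, and none of the 8 was at 0 in any group. One library stood apart for genes that bear on the members. Rod day 35 replicate 2 held 26.4 CPM of Hox genes of paralog groups 1 to 6, which pattern the hindbrain and trunk, against 0.0850 and 0.839 in the other two libraries of its group. Member values of day 35 are given with and without it.

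Gata2, Pax8 and Pou3f4 were near 0 in untreated cells and cone culture at day 0, were detected in rod primed cells, and were higher still on days 5 to 35 of rod culture. Because the rod over cone difference picked these genes, it is given below as a description without a test. The primed over untreated and later over primed differences are other contrasts, but they use some of the same rod libraries. For Gata2, Pax8 and Pou3f4 their p-values and calls are therefore not independent of the pick, and are no support for it. In bulk RNA, fewer cells of a type and less RNA per cell cannot be told apart.

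Gata2 stood at 0.256, 0 and 0.407 CPM in the 3 untreated libraries and at 2.31, 2.12 and 7.18 in rod primed cells. Rod culture held 23.4, 6.36 and 11.7 CPM on day 5, 19.3, 17.1 and 20.2 on day 12, 21.4, 24.9 and 32.9 on day 21, and 9.60, 14.6 and 11.5 on day 35. All 12 rod libraries of days 5 to 35 lay above all 18 untreated and cone libraries, whose highest value was 1.78 CPM. Gata2 rose in rod primed over untreated cells by a log2 fold change of 4.14 ± 0.71 (SE; adjusted p = 0.000291). It rose further over rod primed cells, by 1.79 ± 0.47 on day 5 (adjusted p = 0.00961), 2.25 ± 0.47 on day 12, 2.74 ± 0.47 on day 21 and 1.59 ± 0.47 on day 35 (adjusted p = 0.00550). The groups overlapped on day 5, and that call was lost without rod day 5 replicate 1 (1.19, adjusted p = 0.0963), rod primed replicate 1 (1.54, adjusted p = 0.0566) or rod primed replicate 2 (1.48, adjusted p = 0.0640). Without rod primed replicate 3, the highest of its group, the primed over untreated value was 3.30 and the 4 later values were 2.63, 3.09, 3.58 and 2.43. Leaving out untreated replicate 2 or 3 moved the first of these to 3.50 or 5.34. The highest group mean was 26.4 ± 5.91 CPM (SD, n = 3) on rod day 21, and its libraries did not overlap those of rod day 12, at 18.9 ± 1.58.

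Cone culture held little Gata2, and more on later days. Its libraries had 0, 0.0581 and 0.0608 CPM on day 5, 0 to 0.583 on day 12, 0.525 to 1.03 on day 21, and 0.773, 1.71 and 1.78 on day 35. Cone primed cells had 3 counts in all, so later changes are given as ratios of counts with exact 95% counting intervals. The ratio to cone primed cells was 7.58 on day 21 (2.31 to 39.2; adjusted p = 0.0283) and 14.2 on day 35 (4.59 to 71.1; adjusted p = 0.00155), both called. Gata2 passed the low-count filter through its rod libraries, and with the compared cone libraries alone it did not pass and was not tested. The day 21 call was lost without cone primed replicate 1 or 2 or cone day 21 replicate 2 (adjusted p 0.0883, 0.0905 and 0.0967). Without cone primed replicate 3 the fitted log2 values moved from 2.79 to 3.65 on day 21 and from 3.70 to 4.56 on day 35, both called. As a description, the rod to cone ratio of Gata2 counts was 41.3 at day 0 (13.8 to 203) and 303 on day 5 (83.4 to 2511). On days 12, 21 and 35 the log2 fold change of rod over cone was 6.43 ± 0.68, 5.11 ± 0.57 and 3.06 ± 0.51. The fitted day 0 value of 5.17 moved to 6.08 without cone primed replicate 3 and to 4.33 without rod primed replicate 3, and that of day 5 from 8.06 to 7.47 without rod day 5 replicate 1. Without cone day 12 replicate 1 or 2, the day 12 value was 7.75 or 5.79. The fitted value was smallest on day 35, though days were not tested against each other. There the mean in rod culture was 11.9 ± 2.54 CPM and that in cone culture 1.42 ± 0.560 (SD, n = 3).

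Pax8 had 0, 0.0667 and 0.340 CPM in untreated cells and 2.17, 1.31 and 2.87 in rod primed cells. The groups did not overlap, yet the difference of 3.67 ± 1.25 was not called (adjusted p = 0.0589). It was called with DESeq2 (adjusted p = 0.0102), without the filter (0.0407), and with the compared libraries alone (0.00585). With untreated replicate 3 left out it was 5.35 and not called (adjusted p = 0.0896). Over rod primed cells Pax8 rose on all 4 days, by 3.47 ± 0.77 (adjusted p = 0.00263), 3.21 ± 0.77, 3.49 ± 0.77 and 3.25 ± 0.77. The rod libraries held 29.5, 13.7 and 27.9 CPM on day 5, 10.8, 29.3 and 19.2 on day 12, 22.4, 18.1 and 31.8 on day 21, and 7.90, 26.3 and 26.6 on day 35. Means of the 4 days lay between 19.8 and 24.1 CPM, and neighbours in that order overlapped, so no order of days stands out beyond the spread.

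In cone culture Pax8 spread widely between libraries. It was 0, 0.243 and 0.756 CPM on day 5, 1.98, 0.699 and 3.40 on day 12, 0.656, 1.80 and 11.4 on day 21, and 0.427, 2.32 and 0.161 on day 35. Cone day 21 replicate 3, with 154 counts, was the single cone library that reached the range of rod culture. Against the 3 counts of cone primed cells, the ratio was 20.3 on day 12 (6.65 to 101; adjusted p = 0.0161) and 54.6 on day 21 (18.4 to 267; adjusted p = 0.000757), both called. It was 3.48 on day 5 and 9.46 on day 35, which were not called (adjusted p 0.544 and 0.0937), although DESeq2 called day 35 (adjusted p = 0.0204). Pax8 also passed the filter through its rod libraries, and was not tested on cone days when the compared cone libraries were fitted alone. The day 12 call was lost without cone primed replicate 1 or 3 or cone day 12 replicate 3 (adjusted p 0.0519, 0.0620 and 0.0882). Cone primed replicate 2 holds all 3 of those counts, and no ratio to cone primed cells can be formed without it. Without cone day 21 replicate 3 the fitted day 21 log2 value moved from 5.47 to 3.58, still called (adjusted p = 0.0380). As a description, rod over cone was 21.4 at day 0 as a ratio of counts (6.97 to 106), and 6.06 ± 0.92, 3.28 ± 0.76, 2.31 ± 0.70 and 4.39 ± 0.83 on days 5 to 35 as log2 fold changes. Without cone day 21 replicate 3 the day 21 value was 4.20. Without replicate 3 of cone days 5 and 12 or replicate 2 of cone day 35, the values of those days were 7.40, 3.96 and 6.09.

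Pou3f4 had 0.384, 0.20 and 0.0679 CPM in untreated cells and 0.678, 2.22 and 2.96 in rod primed cells. It rose by 3.35 ± 0.70 (adjusted p = 0.00231), and was not tested with these 6 libraries alone, where it did not pass the filter. On the 4 later days of rod culture it held 13.8, 12.4 and 7.36 CPM, then 17.9, 10.4 and 15.4, then 17.5, 33.9 and 20.2, and last 10.0, 28.0 and 12.0. All 12 of these libraries lay above all others of the series. The rises over rod primed cells were 2.45 ± 0.46 (adjusted p = 0.000471), 2.84 ± 0.46, 3.55 ± 0.46 and 3.03 ± 0.46 (adjusted p = 3.19e-06). Rod day 35 replicate 2, the library with Hox counts, was the highest of its group, and without it the last value was 2.43, still called. Cone culture stayed between 0.0773 and 1.57 CPM. The 1 call over cone primed cells was on day 21, at 1.14 ± 0.392 CPM (SD, n = 3) against 0.277 ± 0.131 (log2 fold change 1.98 ± 0.74, adjusted p = 0.0267). Pou3f4 too was not tested there with the compared cone libraries alone, since it passed the filter through its rod libraries. The day 21 call was lost without cone day 21 replicate 1 (1.70, adjusted p = 0.0857) or cone primed replicate 1 or 2 (1.90 and 1.65, adjusted p 0.0650 and 0.113). As a description, rod over cone was 2.86 ± 0.69 at day 0 and 5.33 ± 0.56, 5.19 ± 0.56, 4.43 ± 0.50 and 5.10 ± 0.54 on days 5, 12, 21 and 35. Without cone day 12 replicate 1 or 3 the day 12 value was 5.90 or 4.65. Without cone day 5 replicate 3 the day 5 value was 4.92, and without rod day 35 replicate 2 the day 35 value was 4.50.

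**Figure D1:**
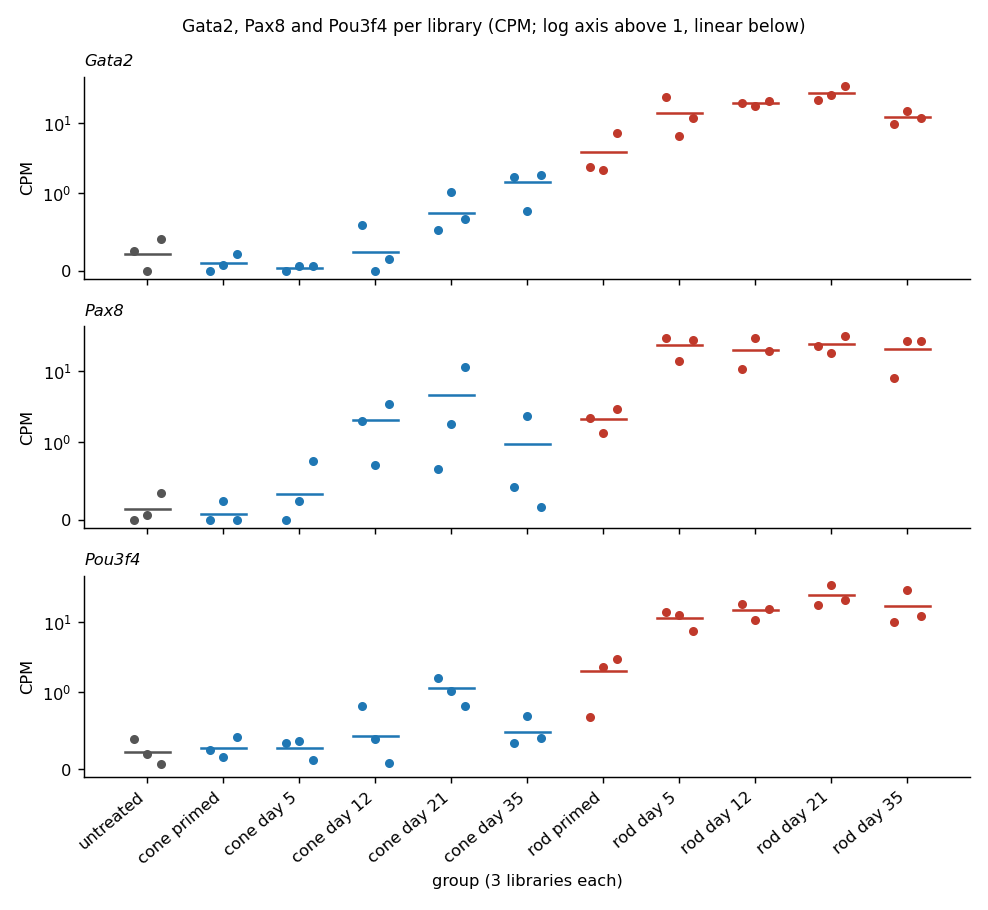
Level of Gata2, Pax8 and Pou3f4 (CPM; linear up to 1, log above) in each of the 3 libraries of 11 groups, with untreated cells in grey, cone culture in blue, rod culture in red, and the group mean as a line. Rod libraries of days 5 to 35 lie above 6 CPM, and the 1 cone library of Pax8 at 11.4 CPM on day 21 stands apart from its group.

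Of the 8 members, 4 rose and 0 fell in rod primed over untreated cells, against 10.3% of all genes tested called in either direction. They were Gata2 and Pou3f4, which were picked for their high level in rod libraries, and the relatives Pax2 and Pou3f2. Because picked members are in this count and in those of both cultures over time, nothing is read from these counts against the share of all genes. In cone primed over untreated cells 0 members were called, beside 0% of all genes. At an unadjusted p under 0.05 there were 0 members and 200 genes, and DESeq2 also called 0 genes. Over rod primed cells 5 members were called on day 5, 6 on day 12, 7 on day 21 and 7 on day 35, where 17.5%, 42.4%, 50.8% and 55.6% of all genes were called. Over cone primed cells the counts were 3, 5, 7 and 5, beside 22.3%, 48.4%, 52.6% and 57.7%. Picked members in these were Pax8 on days 12 and 21, Gata2 on days 21 and 35, and Pou3f4 on day 21. They passed the filter through their rod libraries. In both cultures the members that fell were Pou3f1 on all 4 days and Pou3f2 from day 12. When the compared libraries alone were fitted, 4 of the 8 members passed the filter on days 12, 21 and 35 of cone culture, and 3 were called on each: Pax2, Pou3f1 and Pou3f2. Over all genes 7574 of 15342, 8015 of 15405 and 9622 of 15764 were called in those fits.

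Among the 5 relatives, which were taken by family, rod over cone was tested. At day 0, 2 relatives were called, beside 7.27% of all genes. On days 5, 12, 21 and 35 the counts were 2, 2, 1 and 2, beside 9.28%, 10.1%, 9.00% and 12.3% of all genes. Pax2 and Pou3f2 made up the calls at days 0 and 5, Pou3f2 was also called on days 12, 21 and 35, Gata3 was lower in rod culture on day 12, and Pou3f1 was lower on day 35.

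Pax2, the optic stalk and ventral eye factor, was low in untreated cells (0.640, 0.534 and 1.15 CPM) and in cone primed cells (0.126, 1.13 and 0.419), and higher in rod primed cells (5.02, 6.25 and 11.6). It rose by 3.27 ± 0.53 in rod primed over untreated cells (adjusted p = 0.000158), and was higher in rod primed than in cone primed cells by 3.61 ± 0.58 (adjusted p = 0.000162; 4.72 without cone primed replicate 2). On day 5 the rod libraries held 59.2, 24.2 and 51.7 CPM and the cone libraries 7.88, 4.50 and 8.72, a difference of 2.67 ± 0.37 (adjusted p = 2.29e-05). From day 12 the cultures overlapped. Cone libraries held 129, 91.5 and 198 CPM on day 12 and rod libraries 150.3, 82.9 and 128, and all 18 libraries of days 12 to 35 lay between 74.2 and 198 CPM. The rod over cone values there were -0.21 ± 0.33, 0.12 ± 0.33 and 0.10 ± 0.33 (adjusted p 0.767, 0.873 and 0.896). Their sign turned without cone day 12 replicate 3 (0.13), rod day 21 replicate 1 (-0.035) and cone day 35 replicate 3 (-0.068). In cone culture Pax2 rose over cone primed cells on all 4 days, by 3.47 ± 0.57 on day 5 and 7.78 ± 0.53 on day 12 (adjusted p = 9.66e-05 and 5.67e-12). Without cone primed replicate 2 these values were 4.58 and 8.88. The other 2 values were 7.53 ± 0.52 and 7.29 ± 0.52 (8.64 and 8.40 without that library). In rod culture it rose over rod primed cells by 2.53 ± 0.38 on day 5 and by 3.95 ± 0.39, 4.05 ± 0.39 and 3.78 ± 0.39 on the later days. Each day's rod libraries of Pax8 lay above that day's cone libraries. Pax8 was picked on this difference, so nothing is read from its contrast with Pax2.

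Gata3 was counted at most once in each library of day 0. On day 5 it was at 1.34, 0.790 and 1.16 CPM in cone culture and at 1.01, 0.143 and 0.208 in rod culture. On day 12 it was at 0.816, 0.854 and 1.86 in cone culture and at 0.214, 0.136 and 0.144 in rod culture, and the groups did not overlap. The rod over cone value was -2.78 ± 0.74 on day 12 (adjusted p = 0.0155), in the direction opposite to Gata2. It rests on 7 and 42 counts in all, and the call was lost without cone day 12 replicate 3 or rod day 12 replicate 2 or 3 (adjusted p 0.118, 0.0620 and 0.0651) and with the compared libraries alone (adjusted p = 0.0624). On days 21 and 35 rod culture held 1.85, 2.47 and 1.43 and then 0.765, 5.34 and 1.55 CPM, and the groups overlapped. The day 35 value of 0.83 ± 0.57 turned to -0.29 without rod day 35 replicate 2, the library with Hox counts. As ratios of counts, Gata3 rose over primed cells by 16.3 on cone day 5 (4.29 to 138; adjusted p = 0.00360) and by 53.8 on rod day 21 (9.37 to 2151; adjusted p = 5.24e-05). It was called on all 4 days of cone culture, with ratios from 16.3 to 21.3 (with the compared libraries alone it passed the filter on day 5 only, still called), and on rod day 35, with 71.0 (12.5 to 2834; adjusted p = 1.19e-05). The single rod primed count lies in replicate 3, without which no ratio to rod primed cells can be formed, and without rod day 35 replicate 2 the fitted log2 value of day 35 moved from 5.83 to 4.71, still called. On rod days 5 and 12 it was not called (adjusted p 0.0608 and 0.239), and the day 5 test passed without rod day 5 replicate 2 (adjusted p = 0.0467).

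Pou3f1 was the POU3F gene with the highest level per exon length in untreated and cone primed cells. Untreated libraries held 22.4, 16.9 and 21.9 CPM, cone primed libraries 19.9, 25.2 and 17.6, and rod primed libraries 8.54, 11.9 and 13.8. The rod primed libraries lay below the others, but neither over untreated (-0.83 ± 0.39, adjusted p = 0.192) nor over cone primed cells (-0.87 ± 0.39, adjusted p = 0.203) was the difference called. With the compared libraries alone both were called (adjusted p 0.0162 and 0.0242), as was the second with DESeq2 (adjusted p = 0.0428). Pou3f1 fell with time in both cultures. In cone culture it fell over cone primed cells by 2.29 on the log2 scale on day 5 (SE 0.41) and by 5.34 on day 35 (SE 0.53). In rod culture it fell by 2.18 on day 5 (SE 0.43) and by 4.40 on day 21 (SE 0.51), and on rod day 35 it was down to 2 counts over 3 libraries, a ratio of 0.00428 to rod primed cells (0.000517 to 0.0156; adjusted p = 1.34e-09). Both of those counts lie in replicate 3. Without cone day 35 replicate 2 the cone value of day 35 was -6.35, and without rod day 21 replicate 1 the rod value of day 21 was -5.15. Between cultures on day 35 the ratio of those 2 counts to 18 in cone culture was 0.10 (0.0113 to 0.419; adjusted p = 0.0408). The libraries overlapped at 0, and the call was lost without replicate 1 or 2 of either culture (adjusted p from 0.0818 to 0.304). Without replicate 3 of cone day 35 the fitted log2 value moved from -3.10 to -3.69. Leaving out replicate 1 of rod day 21 turned the not called day 21 value of 0.54 ± 0.71 to -0.21.

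Pou3f2 was the relative called as higher in rod culture at all 5 times tested. Untreated libraries held 12.3, 11.4 and 13.5 CPM, cone primed libraries 11.6, 18.5 and 13.7, and rod primed libraries 32.3, 32.3 and 39.1, above all others. It rose in rod primed over untreated cells by 1.48 ± 0.29 (adjusted p = 0.00135) and was above cone primed cells by 1.24 ± 0.29 (adjusted p = 0.00848). The second call was lost without cone primed replicate 1 or 3 or rod primed replicate 3 (adjusted p 0.0571, 0.0533 and 0.0528). It fell in both cultures from day 12. Rod libraries held 20.6, 27.7 and 19.5 CPM on day 5 and 4.16, 3.07 and 3.29 on day 35, and cone libraries 10.8, 11.0 and 14.8 and then 0.512, 1.97 and 0.968. Over primed cells the fall was not called on day 5 in either culture (adjusted p 0.137 and 0.548; in rod culture 0.0184 with the compared libraries alone), and was called on days 12, 21 and 35 in both, with values of -3.30 ± 0.32 in rod and -3.66 ± 0.36 in cone culture on day 35 (-4.30 in cone culture without cone day 35 replicate 2). Rod over cone was 0.89 ± 0.29 on day 5 (adjusted p = 0.0498), 1.69 ± 0.33 on day 12 (0.00109), 1.96 ± 0.39 on day 21 (0.00148) and 1.60 ± 0.38 on day 35 (0.00474). The libraries did not overlap on any of these days. The day 5 call was lost without any 1 of its 6 libraries (adjusted p 0.0627 to 0.198), and with the compared libraries alone the calls of days 12 and 35 were lost (adjusted p 0.0719 and 0.0787). Without cone day 35 replicate 2 the day 35 value was 2.23.

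Pou3f3 lay between 0.0679 and 4.86 CPM in all 33 libraries and was called in none of the 15 comparisons. Its lowest adjusted p was 0.106, for cone day 5 over cone primed cells (1.94 ± 0.86), and that difference was called without cone primed replicate 1 (3.47, adjusted p = 0.0274). In rod primed over cone primed cells the libraries did not overlap, but the difference of 2.18 ± 0.87 was not called (adjusted p = 0.140). DESeq2 called neither. Rod over cone on days 5 to 35 lay between 0.66 and 0.78 with SEs of 0.70 to 0.74, about the size of the differences, and none was called. On day 21 the libraries did not overlap, at 1.93 to 4.17 CPM in rod and 1.18 to 1.80 in cone culture (adjusted p = 0.592).

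**Figure D2:**
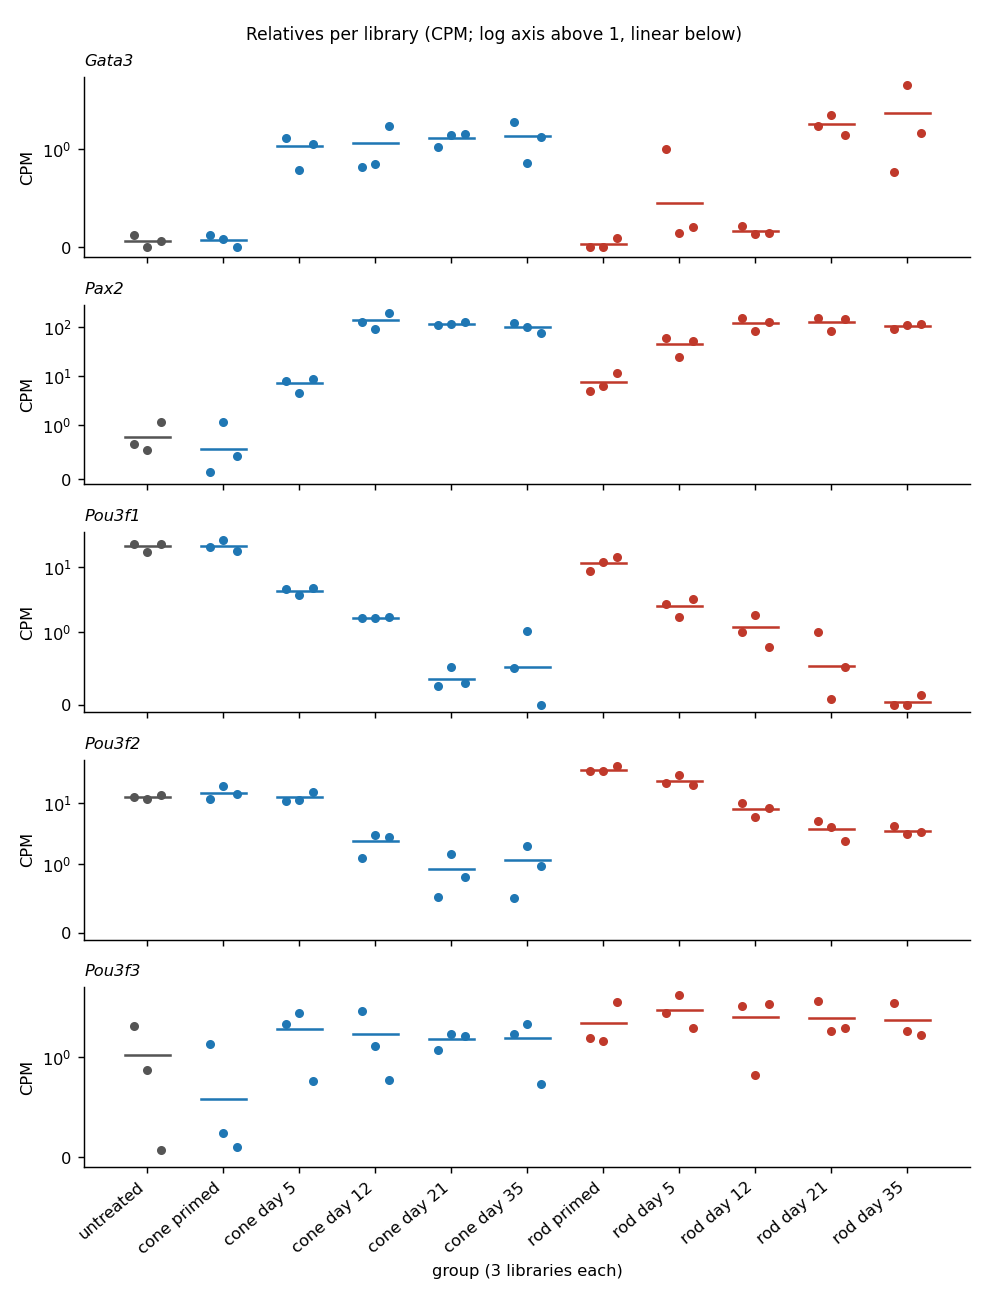
Level of the 5 relatives (CPM; linear up to 1, log above) in each of the 3 libraries of 11 groups, with the group mean as a line and the colours grey for untreated, blue for cone and red for rod. Pax2 reaches 74.2 to 198 CPM in both cultures from day 12, Pou3f1 and Pou3f2 decline, and Gata3 has at most 1 count in each library of day 0.

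**Figure D3:**
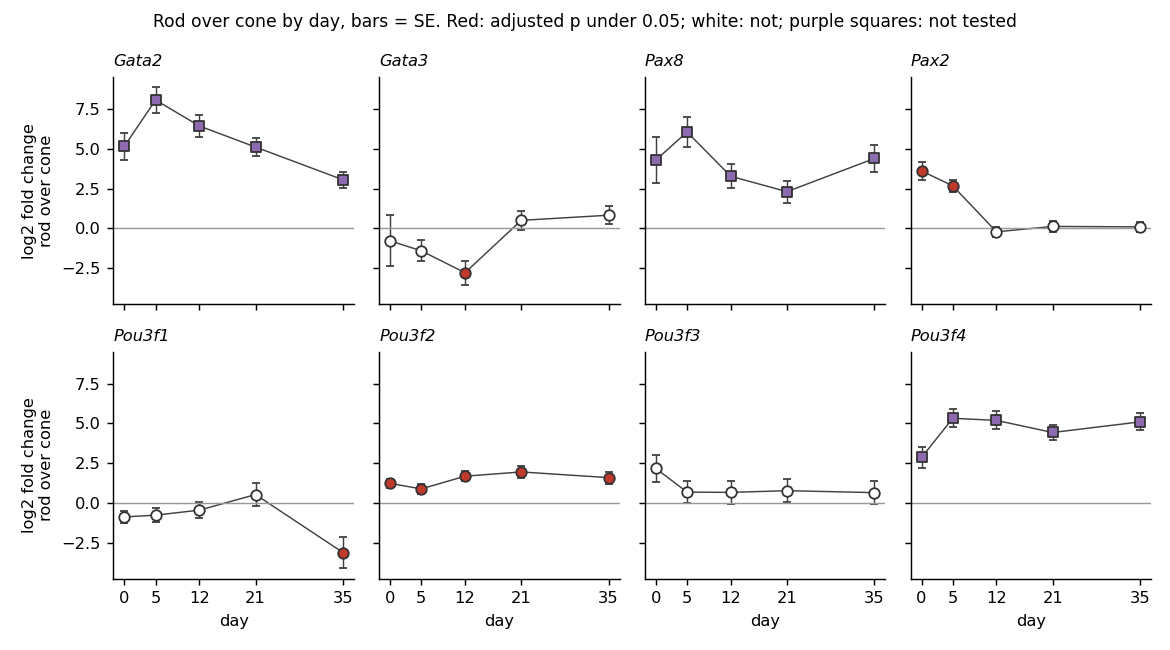
Rod over cone log2 fold change (y axis) against day (x axis), with SE bars, for the 8 members. Red circles passed the test in relatives, white circles did not, and purple squares mark the 3 genes picked on this difference, which were not tested.

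Per kilobase of exon, the only scale on which levels of different genes are compared here, the leading POU3F gene differed between groups. In untreated cells Pou3f1 stood at 5.30 ± 0.781 CPM per kilobase, Pou3f2 at 2.22 ± 0.190, Pou3f3 at 0.140 ± 0.144 and Pou3f4 at 0.0742 ± 0.0542 (SD, n = 3). In rod primed cells Pou3f2 led with 6.19 ± 0.697, ahead of Pou3f1 at 2.97 ± 0.694. On rod day 5 Pou3f2 (4.04 ± 0.795) and Pou3f4 (3.83 ± 1.16) were within their spread of each other. On rod day 21 Pou3f4 led with 8.16 ± 3.00 against 0.679 ± 0.242 for Pou3f2 and 0.139 ± 0.120 for Pou3f1. In cone culture on day 21 the 4 genes lay between 0.0929 and 0.389 CPM per kilobase. Pou3f4 was the highest there too, at 0.389 ± 0.134, with Pou3f3 next at 0.211 ± 0.0448. Pax2 exceeded all POU3F and GATA members from day 12 on, at 25.8 ± 9.99 on cone day 12 and 23.7 ± 7.31 on rod day 21.

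**Figure D4:**
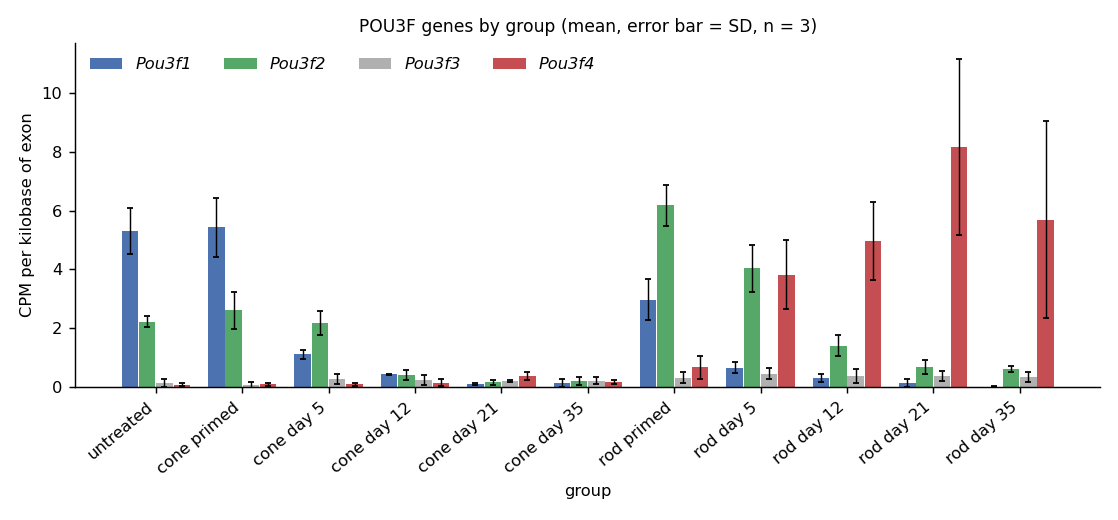
Mean level of the 4 POU3F genes in CPM per kilobase of exon (y axis) in the 11 groups (x axis), with SD error bars over 3 libraries. Pou3f1 leads in untreated and cone primed cells, Pou3f2 in rod primed cells, and Pou3f4 from rod day 12 and, at a low level, on cone day 21.

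The abundance tables deposited by the authors did not match the counts for these genes. Gata3 was listed at TPM 0 in all 33 libraries, although 15 of them had 10 or more counts. Pax8 was listed at TPM 0 in 14 of the 21 libraries with 10 or more counts, and Pou3f3 in 13 of 28. Over all genes with at least 100 counts in a library, 19.0% to 32.0% were listed at TPM 0, so TPM was not used for levels.

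Over the 11 group means of log2(CPM + 0.5), the pattern most like that of Gata2 among 12281 genes was that of Pou3f4 (Pearson r = 0.975). It was followed by Ephb2 (0.966), an ephrin receptor of the ventral retina, Vax2os (0.966), Il1rapl1 (0.961) and Lrrc4c (0.95). For Pax8 the nearest were Pou3f4 (0.968), Nup214 (0.964), Vax2os (0.963), Galnt3 (0.958) and Aif1l (0.956). For Pou3f4 they were Il1rapl1 (0.984), Gata2 (0.975), Pax8 (0.968), Vax2os (0.962) and Galnt3 (0.947). The 3 members were picked for the same difference, so their likeness to each other is a description. The group means share culture and day, and without a known strand setting reads of Vax2os, the antisense partner of Vax2, cannot be told from those of Vax2. Vax2os stood at a mean of 2.98 CPM in untreated cells, 2.18 after cone priming and 12.6 after rod priming, and at 51.1 on rod day 21 against 11.1 on cone day 21. Ephb2 stood at 189 CPM in untreated and 348 in rod primed cells, and at 538 on rod day 12 against 165 on cone day 12.

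The relatives had other nearest genes. Pax2 was nearest to Lmcd1, Tns3 and Etl4 (r from 0.991 to 0.993), and Pou3f1 to Rxrg, a retinoid X receptor of early cones and ganglion cells, Mllt11 and Cntn2 (0.987 to 0.995). Pou3f2 was nearest to Arl5b, Pcif1 and Nrf1, Pou3f3 to genes that include Gabpb2 and Pmepa1, and Gata3 to Cyb5d2, Card6 and Arhgap29. Within families the patterns ranged from unlike to alike: r was 0.170 for Gata2 with Gata3, 0.692 for Pax8 with Pax2, 0.754 for Pou3f4 with Pou3f3, 0.032 with Pou3f2 and -0.541 with Pou3f1.

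Lists of other genes were read beside the members, by their counts of calls in rod over cone and their medians, for which the medians of all genes lay between -0.029 and 0.011. Retinoic acid response genes, which include the enzymes that break it down, were higher in rod culture at each time. Gata2, Pax8 and Pou3f4 were picked for that direction, so nothing is read from sharing it. In rod primed over cone primed cells 6 of 8 were higher, with a median of 3.95, and on each of days 5, 12, 21 and 35 5 of 8 were higher and 0 lower. On day 5 Cyp26b1 was higher by 5.37 ± 0.65, Cyp26a1 by 4.72 ± 0.41 and the receptor gene Rarb by 4.04 ± 0.23 (adjusted p at most 4.40e-06). Their part in the members' levels was not tested.

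GATA partners and other GATA genes showed no common direction. Of 13 genes 7 passed the filter, and on day 35 Gata6 was higher by 2.16 ± 0.68 while Lmo2 (-2.76 ± 0.79) and Runx1 (-1.67 ± 0.30, at 34.5 against 110.2 CPM) were lower in rod culture. Without rod day 35 replicate 2, a setting chosen for the list genes after seeing the data, Gata6 was not called (1.33, adjusted p = 0.279), and Lmo2 was at -5.13. On days 5, 12 and 21, 1, 0 and 1 of the 7 were higher and 1, 2 and 1 lower. Gata1, the red cell and mast cell factor, had 0 counts in all 11 groups, as had Cpa3 of mast cells and Cd3e of T cells. Endothelium and blood genes gave 1 higher and 2 lower of 4 passing on day 35: the receptor Kit was at 42.9 CPM in rod and 8.67 in cone culture, and Kdr and Pecam1 were lower. The call of Pecam1 was lost without rod day 35 replicate 2 (adjusted p = 0.0866). Their summed level ran from 98.6 to 150 CPM in rod and 158 to 246 in cone culture on day 35. Among GABAergic and glycinergic neuron genes, 7 of 10 passed, and on day 5 the only call was Gad2, a GABA-producing enzyme, at 10.1 CPM in rod and 51.4 in cone culture (-2.34 ± 0.48). On day 35 the only call was Slc32a1, lower in rod culture.

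For the PAX genes, known tissues of expression outside the eye were read the same way. Midbrain-hindbrain boundary genes gave En2, at 25.1 to 32.9 CPM in rod and 1.4 to 2.13 in cone culture on day 5 (4.09 ± 0.42), and En1, with 32 and 2 counts in all, as higher. En2 was called on all 5 occasions, while Gbx2 was lower at days 0 and 12, and Wnt1 had 0 counts in 9 of the 11 groups. The mean summed level of this list was 33.5 CPM in rod and 3.58 in cone culture on day 5. On days 12, 21 and 35 it was 26.4 against 21.2, 31.9 against 31.4 and 26.3 against 27.5, so the list as a whole lay close in both cultures there. Of the kidney and thyroid genes 4 of 11 passed, with 0 higher and 2 lower on day 12 (median -2.26, against 0.009 over all genes): Osr1 (0.211 against 4.19 CPM) and Tg, the thyroid hormone precursor, at 2 against 22 counts. Of the otic vesicle genes 4 of 10 passed, and Otog was lower on day 5 (9.37 against 133 CPM). Otog held most of the list's mean summed level of 146 CPM in cone culture that day, so the direction of the list is not read from it. Optic stalk and astrocyte genes, all 8 of which passed, gave 0 higher and 4 lower on day 21, among them Vax1 (-2.48 ± 0.76), Aqp4 (-2.26 ± 0.67) and Pdgfra (-2.15 ± 0.64), while Pax2 was not called on that day. On day 12 Pdgfra was higher instead, with Ntn1 and Vax1 lower. Among other PAX genes 3 of 7 passed: Pax9 was higher on day 5 on 18 against 4 counts, and Pax6 was lower in rod primed cells and higher on rod day 35. Of 10 other POU genes 7 passed, with Pou2f1 higher on day 21 (0.35 ± 0.09) and Pou4f1 lower in rod primed cells.

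Of the 18 Hox genes of paralog groups 1 to 6, Hoxb5 alone passed the filter. All 18 had 0 counts in the 6 untreated and cone primed libraries. The 3 rod primed libraries held 3.80, 4.23 and 2.87 summed CPM, with 5 to 7 of the genes detected in each, and rod day 12 libraries held 0, 0 and 0.216. On rod day 35 replicate 2 had 11 of the genes and 26.4 CPM. In that library Gata2, Gata3 and Pou3f4 were the highest of their group, at 14.6, 5.34 and 28.0 CPM, while Pax8, at 26.3, lay beside replicate 3 at 26.6. Without it 7 members were still called over rod primed cells on day 35, the same 7 as with it. Over all genes 9352 of 18598 were called in that fit, and picked members are among the 7. The log2 fold changes were then 1.41 for Gata2 (adjusted p = 0.0235), 4.71 for Gata3, 3.02 for Pax8, 3.75 for Pax2, 2.43 for Pou3f4, -3.22 for Pou3f2 and -7.12 for Pou3f1, and 0.22 for Pou3f3, which was not called. Rod over cone on day 35 was 2.88 for Gata2, 4.16 for Pax8 and 4.50 for Pou3f4 without it, as a description. Among the relatives it was 1.68 for Pou3f2, still called, and -2.64 for Pou3f1 (adjusted p = 0.123), -0.29 for Gata3, 0.07 for Pax2 and 0.81 for Pou3f3, none of them called.

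Markers of other cells also differed between the cultures. Microglia genes were lower in rod culture on day 21 (4 of 5 passing) and day 35 (5 of 5), with summed levels of 0.850 to 2.67 CPM in rod and 14.7 to 82.2 in cone culture on day 35. On day 5 the ranges were 0.715 to 6.18 and 3.89 to 10.5 CPM, and no gene of the list was called. Among retinal progenitor genes 4 of 8 were higher and 0 lower in rod culture on day 12, among them Rax at 48.1 against 22.8 CPM and Six6 at 80.5 against 48.0. Amacrine and horizontal cell genes, all 10 of which passed, were split on day 5, with Calb1 and Prox1 higher and Ptf1a and Tfap2a lower. The part of any of these cells in the members' levels was not tested.

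**Figure D5:**
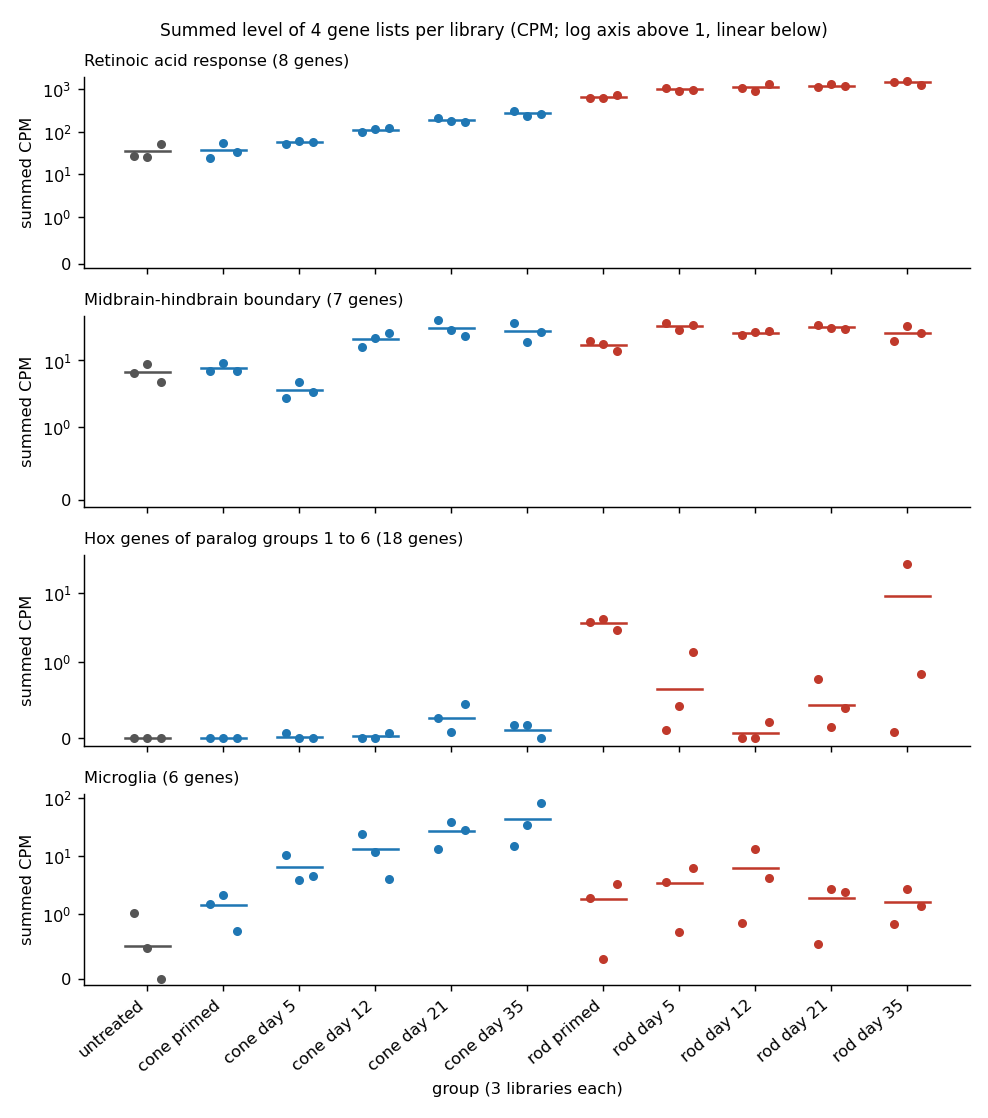
Summed CPM (y axis; linear up to 1, log above) of 4 gene lists in each of the 3 libraries of 11 groups, with the group mean as a line. Retinoic acid response genes stand at 617 CPM or more in rod libraries and at 302 or less elsewhere, Hox genes reach 26.4 in 1 rod library of day 35, and microglia genes run up to 82.2 in cone culture.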

How the data were processed

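Per the labels, total RNA came from embryonic mouse retinal progenitor cells, extracted and made into libraries with Takara low-input kits. The submitters' processing notes name HISAT2, StringTie, HTSeq and build GRCm38, without versions. Per-gene counts deposited by the authors are whole numbers without normalization, and reads outside genes made up 65.1% to 73.1% of all counted reads. The tables deposited by the authors also list TPM, FPKM and coverage per gene: TPM was compared with the counts, and FPKM and coverage were not used.

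Libraries were scaled by TMM and filtered by filterByExpr (minimum count 10), and 1 quasi-likelihood model of edgeR 4.0.16 (R 4.3.3, limma 3.58.1) was fitted to all 33 libraries with 1 coefficient per group. In each of 15 comparisons p-values were adjusted by Benjamini-Hochberg over 18150 genes, and a gene was called under 0.05. Errors on log2 fold changes are SE. Where a group held 1 to 3 counts, ratios of counts to scaled library size carry exact (Clopper-Pearson) 95% intervals, which cover counting error only. Exon lengths and positions came from GENCODE M21. Tables and figures used Python 3.11.15, pandas 2.3.3, numpy 2.4.6, scipy 1.17.1 and matplotlib 3.10.9. The fit was tested on simulated data that left out genes of low mean count and gave all genes the same spread. That test does not cover members in groups with few counts.

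The members and the 15 lists (140 genes, 2 on more than 1 list) were chosen with earlier results of these data known. Named were all members, the 5 genes (3 for relatives) nearest in pattern whose log2 CPM averaged 1 or more (Gm and Rik gene models left out), and up to 3 called genes per list whose libraries did not overlap, at the day with most calls. Other list genes, among them Pax6, Prox1 and Ntn1, are named outside this rule, some for their small counts, after their values were seen. The alternatives were DESeq2 1.42.0, its size factors, no filter, a replicate block, the compared libraries alone, leaving out each library, and TPM for levels. A few genes that this rule names are not reported here. No library batch is named in the labels.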

Additional observations from a re-analysis of the deposited data

How the results depend on the processing

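A part of the members' log2 fold changes was followed across settings. A tested value counted as the same if it kept direction and side of the threshold. The untested rod over cone values of Gata2, Pax8 and Pou3f4 had to keep direction and move by less than the SD within groups. The same were 93 of 94 with DESeq2 size factors, 92 of 94 without a filter and 72 of 79 with the compared libraries alone. With DESeq2 91 of 93 were the same. When 1 library was left out 514 of 564 were. There 15 untested values kept their direction but became larger or smaller by at least that SD. With the compared libraries alone, 3 members were called on cone days 12, 21 and 35 (5, 7 and 5 in the full fit). Over all genes 7574 of 15342, 8015 of 15405 and 9622 of 15764 were called there. In those cone comparisons Gata2, Gata3, Pax8 and Pou3f4 did not pass the filter. In rod over cone on days 12 and 35, 0 relatives were called with the compared libraries alone (2 and 2 in the full fit). In rod over cone on day 5, 1 relative was called with DESeq2 size factors or without a filter, in place of 2. With 1 library left out, relatives called ranged from 1 to 2 in rod over cone at days 0, 12 and 35, and were 1 on day 5 whichever library was left out. Rod over cone log2 fold changes that changed sign ranged from -0.44 to 0.13 for Pax2 on day 12, -0.035 to 0.36 on day 21 and -0.068 to 0.29 on day 35, from -0.21 to 1.02 for Pou3f1 on day 21, and from -0.29 to 1.27 for Gata3 on day 35. The cause of these changes was not tested. Over all genes, the compared libraries alone gave 2912 calls against 1864 in rod primed over untreated cells, and in rod over cone 2084 against 1320 at day 0, 2780 against 1685 on day 5, 363 against 1833 on day 12 and 1456 against 2229 on day 35. With 1 library left out, the lowest counts were 829 in rod primed over untreated cells, 1950 (against 3185) on rod day 5, 2419 (against 4056) on cone day 5, and 573, 891, 986, 952 (against 1633) and 1460 in rod over cone at days 0 to 35.

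Not every pair of libraries that share a replicate number deviated together, so the numbers were not taken as pairs. Over 165 pairs the correlation ran from -0.259 to 0.513 with a median of 0.016 and 48 over 0.1, and 19 of 33 libraries were closest to their own number, a hint from the data and not from the design. With the replicate block, 91 of 94 values counted as the same. There 1 relative was called in rod over cone on day 5 and 1 on day 35, where Pou3f1 had an adjusted p of 0.0525. Pax8 in rod primed over untreated cells was called with the block (adjusted p = 0.0385).

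By deposited TPM the place of the mean level among the members moved for Gata2 (6 to 3), Pax8 (5 to 6), Pou3f1 (4 to 2), Pou3f2 (3 to 4) and Pou3f4 (2 to 5). Depth limits values where a group of 3 libraries held under 10 counts: Gata2, Gata3, Pax8 and Pou3f4 in untreated and cone primed cells, Gata3 in rod primed cells and on rod day 12, Gata2 on cone days 5 and 12, and Pou3f1 on rod day 35.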
